A study of Danio rerio with 6 samples.

Results

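Thrombocytes are the nucleated blood cells of fish that do the work of mammalian platelets, and they numbered 1513 of the 65399 ventricular cells that passed the filter. A cell was taken as a thrombocyte when at least 3 of itga2b, mpl, gp1bb, gp9, thbs1b and apln were detected, itga2b or mpl among them. It also had to hold fewer than 3 unique molecular identifiers (UMIs, counted transcripts) summed over the macrophage genes mpeg1.1, c1qa, c1qb and c1qc, and 0 UMIs of the endothelial gene cdh5. The measured levels of these genes chose the cells, so they are given as a description and carry no test.

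The study profiled adult zebrafish ventricles by droplet single-cell sequencing in 6 libraries, each from 15 pooled ventricles, digested for 3 h at 4 °C and sorted for single Hoechst-stained cells. The wild type (WT) libraries were a sham library, whose treatment label read untreated, and libraries at 3 and 7 days post amputation (dpa) of the ventricle. The other 3 libraries came from clofv087b/+ fish (het), which carry 1 mutant allele of the cloche locus in all their cells, also as sham (label untreated), 3 dpa and 7 dpa. With 1 library per group no 2 groups could be tested against each other. A genotype effect on genes shared by the 3 stages was tested with stages as pairs. Intervals in parentheses are exact 95% intervals and reflect counting error alone; they leave out the spread between fish or libraries. Where 3 values are given for a genotype, their order is sham, 3 dpa, 7 dpa.

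Platelets and thrombocytes stop bleeding. The integrin formed by itga2b and itgb3b binds fibrinogen, the gp1bb and gp9 products belong to the receptor for von Willebrand factor, and mpl is the receptor for thrombopoietin, the growth factor of this lineage. Their granules store adhesive proteins, clotting factors and growth factors that are released at a wound, which is why the cells are studied in heart repair.

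Library-wide facts that bear on the cells were as follows. The libraries held 8994 to 14122 filtered cells at a median depth of 4054 to 7318 UMIs, and thrombocytes were shallower, at medians of 1742 to 2006 UMIs and 717 to 905.5 genes. Likely doublets made up 1.70 to 10.4% of the thrombocytes and 7.70 to 12.3% of all cells. The limits on macrophage and cdh5 UMIs removed 50 cells (22.9%) that otherwise met the rule in the WT sham library and 9.96 to 14.5% in the other 5. Of the thrombocyte barcodes, 22 also occurred in another library, 0 of them as a thrombocyte in both. The gene at the cloche locus, npas4l, had 0, 0 and 1 UMIs in WT thrombocytes and 2, 0 and 3 in the matching het cells, too few to check the genotype labels. The WT sham library held 11 erythrocytes, so levels read against erythrocytes are poorly known there.

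Thrombocytes were most frequent in the uninjured het library and scarce in both 3 dpa libraries. In WT they numbered 168, 44 and 215, which was 1.47% (1.26 to 1.71%), 0.484% (0.352 to 0.649%) and 1.69% (1.47 to 1.92%) of the filtered cells. In het they numbered 633, 59 and 394, which was 7.02% (6.50 to 7.57%), 0.656% (0.500 to 0.845%) and 2.79% (2.53 to 3.08%). The het sham share stood 4.77-fold above the WT sham share, a log2 ratio of 2.26 (2.01 to 2.51).

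The genotype ratio was smaller after amputation. It was 0.44 (-0.15 to 1.04) on the log2 scale at 3 dpa, an interval that included 0, and 0.73 (0.48 to 0.97) at 7 dpa. At 3 dpa the WT share was below the sham share, with a log2 ratio of -1.60 (-2.12 to -1.12), and the het share more so, with -3.42 (-3.83 to -3.03). For 7 dpa over sham the WT log2 ratio was 0.20 (-0.10 to 0.50) and the het ratio -1.33 (-1.52 to -1.15), and the same sham library entered both injury ratios of its genotype. The WT value at 7 dpa was -0.04 when every cell was thinned to 1000 UMIs and -0.03 without the limits on macrophage and cdh5 UMIs. Among cells outside the cardiomyocytes the sham genotype ratio was 2.03, so it was nearly as large when cardiomyocytes, which made up 2191 of 11421 WT and 525 of 9016 het sham cells, were left out. A share cannot tell fewer thrombocytes from more of the other cells.

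**Figure D1:**
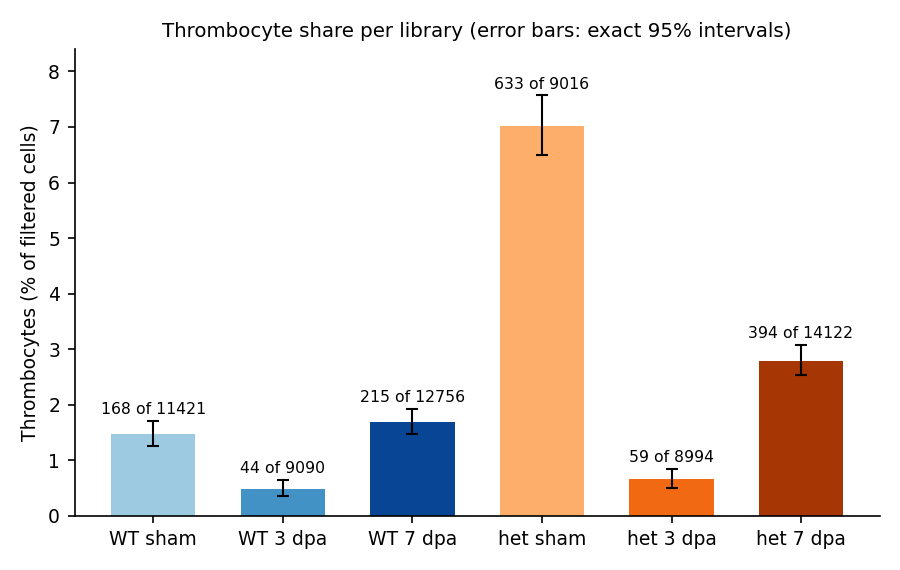
Thrombocytes as a percentage of filtered cells in each of the 6 libraries, with exact 95% intervals and the cell counts above each bar. The het sham bar stands at 7.02% and both 3 dpa bars lie at 0.484% and 0.656%, while WT sham and WT 7 dpa overlap.

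Most thrombocytes held more of the rule's genes than it asked for: between 42.9% (het 7 dpa) and 60.7% (WT sham) of the thrombocytes of a library held 5 or all 6 of the genes. Levels are given as CPM, the UMIs of a gene scaled to a fixed total of thrombocyte UMIs, summed over the cells of a library. The integrin subunit itga2b stood at 757, 790 and 677 CPM in WT against 768, 713 and 646 CPM in het. The thrombopoietin receptor mpl stood at 723, 521 and 605 CPM in WT against 718, 628 and 432 CPM in het. Both were close in the sham libraries, and het 7 dpa held the lowest CPM of each. This order depends on the scaling. The factor by trimmed means of M values (TMM) was 0.835 in het 7 dpa, against 0.923 to 1.206 in the other libraries. Divided by these factors, neither gene was lowest in het 7 dpa. The orders of libraries given here and below are those of CPM.

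The von Willebrand factor receptor subunit gp1bb stood at 1368, 1185 and 1195 CPM in WT against 1450, 1708 and 857 CPM in het. It was again lowest in het 7 dpa in CPM, but not after division by the TMM factors. Its partner gp9 was the least abundant, at 63.3 to 184 CPM, and the least particular to these cells: its smallest log2 ratio over all other filtered cells was 2.58, against 5.88 for gp1bb. Per cell, gp9 was higher in erythrocytes than in thrombocytes in 5 of the 6 libraries, for example at 0.789 against 0.178 UMIs in het 7 dpa. The adhesive glycoprotein gene thbs1b, thrombospondin 1, reached 1163 to 1705 CPM, and apln, the ligand of the apelin receptor, 1857 to 3581 CPM. The order of the libraries differed between these genes, so no library was highest throughout.

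The cells on either side of the rule's threshold were compared in hbegfb, which the rule did not use. In cells with exactly 2 of the 6 markers, which fell just outside, hbegfb stood at 19.7 to 406 CPM over the libraries. In cells with exactly 3 it stood at 446 to 7432 CPM, and in cells with 4 or more at 2031 to 2997 CPM. The lowest and highest of the middle range came from the 11 such cells of het 3 dpa and the 3 of WT 3 dpa. For cells with exactly 2 markers, the lowest value came from 4 cells of WT 3 dpa with a median of 14888 UMIs. In the other libraries such cells stood at 117 to 406 CPM, and het 3 dpa held 4 of them.

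Apart from the rule genes, the 25 genes most enriched over all other filtered cells (by the smallest log2 ratio of 6 libraries) were led by si:ch211-195b11.3, hbegfb and admb, with smallest ratios of 6.43, 6.20 and 6.03. The cells were chosen by measured values, so these ratios describe them. For si:ch211-195b11.3, which the files do not name further, the levels were 2367, 1841 and 1767 CPM in WT against 2283, 1355 and 1343 CPM in het. For hbegfb, a heparin-binding ligand of the epidermal growth factor receptor family, they were 2431, 2791 and 2075 CPM in WT against 2601, 1969 and 2881 CPM in het. In both injured het libraries si:ch211-195b11.3 lay below all 4 others, while hbegfb was lowest in het 3 dpa and highest in het 7 dpa.

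The vasodilator peptide gene admb, adrenomedullin, stood at 1753, 1496 and 1769 CPM in WT against 1167, 1454 and 1982 CPM in het. It was lowest in het sham and highest in het 7 dpa. Coagulation factor gene f5 and the adhesion receptor gene sele, E-selectin, were also among the 25. So were the survival kinase gene pim2 at 1135 to 2348 CPM, the small GTPase gene rac3a at 219 to 381 CPM and the focal adhesion gene lpp at 712 to 1362 CPM.

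Among surface receptors, 38 of the 41 listed genes were in the files, and 19 to 32 of them had UMIs in a library, most at low levels. Within this list, which leaves out the rule genes and sele, the partner of itga2b, itgb3b, was the highest, at 184 to 286 CPM. The collagen receptor subunit itga2.2 stood at 68.7 to 134 CPM, and the platelet aggregation receptor pear1 at 64.2 to 218 CPM. The thrombin receptor f2r stood at 38.1, 117.7 and 82.3 CPM in WT against 53.6, 63.5 and 47.9 CPM in het. For cd36 and f2rl1.1 no UMI was counted in any library. The ADP receptor gene p2ry12 had UMIs in both other WT libraries but none in WT 7 dpa or in het.

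The signalling genes that switch on the integrin were far more abundant. Talin, tln1, stood at 2757, 3841 and 2999 CPM in WT against 2793, 4504 and 2085 CPM in het, so it was highest at 3 dpa in both genotypes. Kindlin 3, fermt3b, had the same order within each genotype except that WT 7 dpa lay below WT sham, at 1168, 1505 and 981 CPM in WT against 1348, 1948 and 802 CPM in het. The small GTPase rap1b stood at 1489 to 2450 CPM, pleckstrin (plek) at 765 to 1200 CPM and the tyrosine kinase btk at 184 to 466 CPM.

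Actin-binding genes made up the largest group by UMIs. The 53 cytoskeleton genes in the files summed to 69601 to 124113 CPM, with het 7 dpa lowest and het 3 dpa highest. In het 3 dpa, profilin (pfn1) stood at 21728 CPM, against 5422 to 9541 CPM in the other 5 libraries. The cell of that library with most pfn1 UMIs held 9.26% of them. The smooth-muscle myosin gene myh11a, listed here as a mural cell marker, was in fact a gene of these cells: 89.1 to 97.7% of the thrombocytes of a library held it, at 4.18 to 6.82 UMIs per cell, against 0 to 0.0702 UMIs per erythrocyte.

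Of the 41 listed granule, coagulation and secreted genes, 38 were in the files and 21 to 32 had UMIs in a library. Fibronectin (fn1b) was the highest, at 3431, 4850 and 3429 CPM in WT against 2289, 4144 and 2354 CPM in het. It peaked at 3 dpa in both genotypes and was lower in het than in WT at each stage. The granule proteoglycan gene srgn, serglycin, was even, at 2127 to 2662 CPM. The factor XIII subunit gene f13a1b stood at 341 to 578 CPM and the tissue factor pathway inhibitor tfpia at 369 to 555 CPM. For the fibrinogen genes fga, fgb and fgg, for plasminogen (plg) and for f7, which the liver makes, no UMI was counted in any library.

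Among 53 growth factor and cytokine genes in the files, hbegfb was followed by bmp6, pdgfd and vegfc, and 16 to 37 had UMIs in a library. The level of bmp6 was 343, 404 and 520 CPM in WT against 634, 134 and 370 CPM in het. The 3 dpa value of het rested on 19 UMIs (log2 ratio to het sham -2.24, -2.98 to -1.59), and 1 cell held 27.1% of the WT 3 dpa UMIs. For pdgfd the range was 201 to 328 CPM and for the lymphatic growth factor vegfc 178 to 277 CPM. Interleukin gene il11b stood at 119, 336 and 59.7 CPM in WT against 46.8, 42.4 and 75.1 CPM in het, but 52.5% of the 40 UMIs of WT 3 dpa came from 1 cell.

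The lineage transcription factors were low but present in every library. The megakaryocyte and thrombocyte regulator nfe2 stood at 148, 202 and 144 CPM in WT against 216, 169 and 117 CPM in het. The erythroid and thrombocyte factor gata1a stood at 57.1, 75.6 and 72.0 CPM in WT against 97.6, 162 and 57.0 CPM in het. For lmo2 and fli1a the ranges were 307 to 656 CPM and 258 to 416 CPM, and for tal1 96.8 to 198 CPM. Within het, nfe2, tal1 and fli1a were lowest at 7 dpa.

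**Figure D2:**
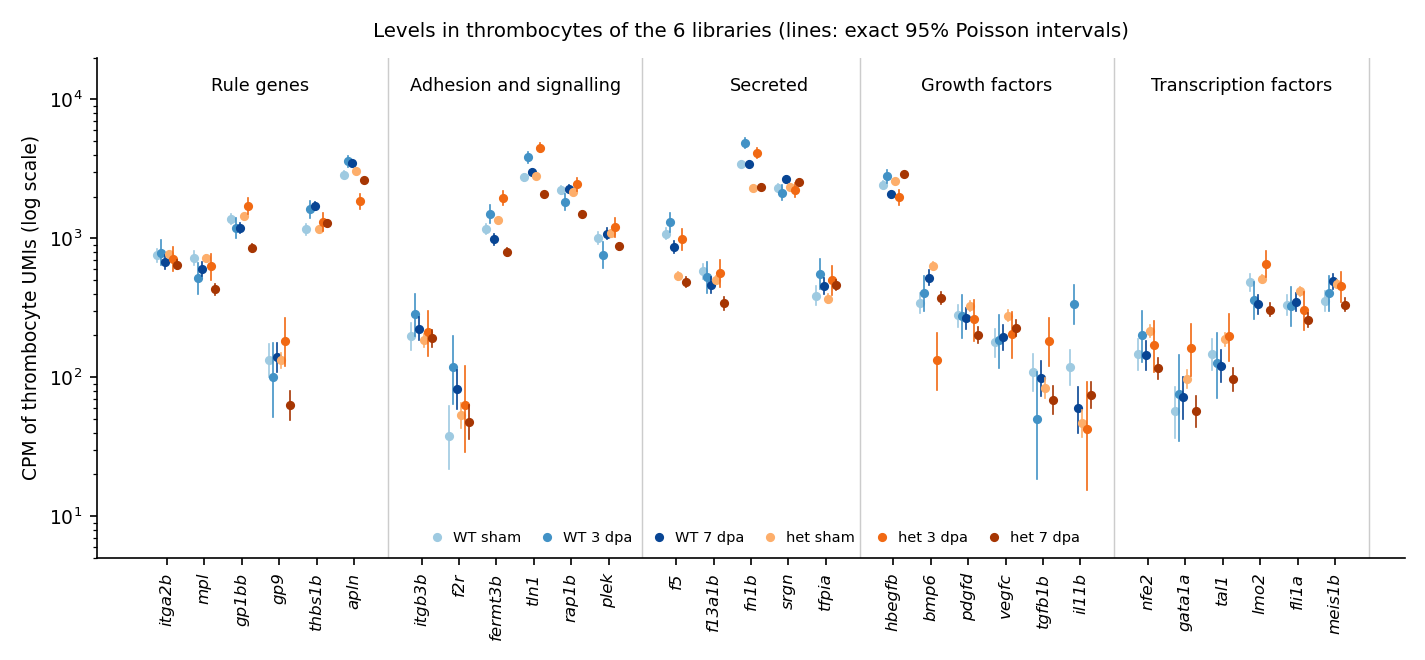
Levels of 29 genes in thrombocytes of the 6 libraries, in CPM of the thrombocytes' summed UMIs on a log scale, with exact 95% Poisson intervals, grouped by role. The growth factor gene bmp6 ranges from 134 CPM in het 3 dpa to 634 CPM in het sham.

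Markers of other cells were then read against erythrocytes, taken as cells that should lack them. Of the 11 macrophage genes in the files, cd63 stood apart: this tetraspanin of granule membranes reached 2.77 to 4.22 UMIs per thrombocyte against 0.0909 to 0.560 per erythrocyte. The summed macrophage list, cd63 included, was 5.33 to 9.88 UMIs per thrombocyte and 2.65 to 6.72 per erythrocyte, and csf1ra was at 0 in het 3 dpa. The neutrophil list summed to 0.0170 to 0.182 UMIs per thrombocyte, with cpa5 at 0 in every library. T and NK, B and glial lists summed to at most 0.245, 0.111 and 0.114 UMIs per thrombocyte, with lck, cd79a and s100b at 0 in at least 5 libraries each.

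Cardiomyocyte transcripts were found at 22.4 to 117 UMIs per thrombocyte against 11.14 to 28.8 per erythrocyte, lowest in het 3 dpa and highest in het 7 dpa, with all 11 genes present in every library. The fibroblast and epicardial list summed to 319 to 560 CPM in the WT libraries and het sham. It reached 2075 CPM in het 3 dpa and 2002 CPM in het 7 dpa, with UMIs of 10 and 11 of its 12 genes. Of the 6 libraries, WT 7 dpa alone held UMIs of wt1b. The part that such cells or their free RNA have in the gene differences below was not tested, except where a value is given without them.

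**Figure D3:**
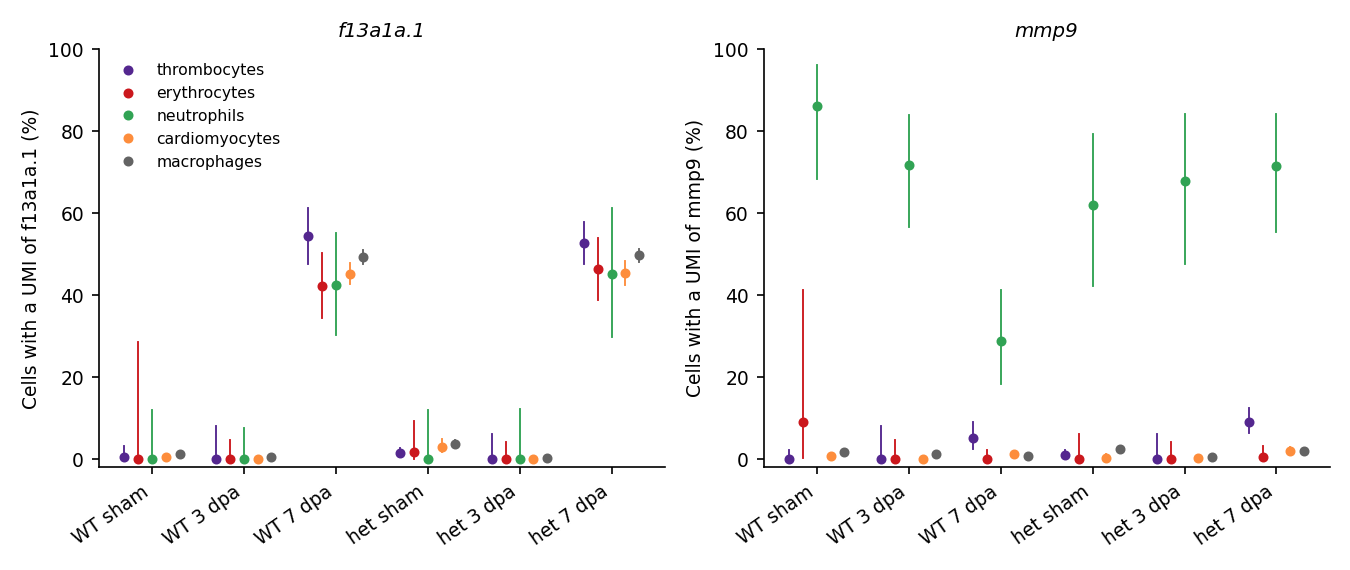
Percentage of cells with at least 1 UMI of f13a1a.1 (left) and mmp9 (right) in thrombocytes and in 4 comparison cell types of each library, with exact 95% intervals. Cells were not thinned, and their depth differed between types and libraries. At 7 dpa all 5 cell types hold f13a1a.1 in 42.2 to 54.4% of cells, while mmp9 is found in 28.8 and 71.4% of neutrophils, 5.12 and 9.14% of thrombocytes and 0 and 0.571% of erythrocytes (WT and het).

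The factor XIII subunit gene f13a1a.1 split the thrombocytes of 7 dpa into cells with and without a UMI, but it did so in the 4 comparison cell types too. It was found in 117 of 215 WT 7 dpa thrombocytes, 54.4% (47.5 to 61.2%), and in 208 of 394 het 7 dpa thrombocytes, 52.8% (47.7 to 57.8%). At sham, 1 WT and 9 het thrombocytes held it, and at 3 dpa 0 of 44 and 0 of 59, where the limit of 3 counts allows up to 6.82% and 5.08% of cells with a UMI. In 7 dpa erythrocytes the WT share was 42.2% (34.5 to 50.3%) and the het share 46.3% (38.7 to 54.0%), at median depths of 3645 and 2678 UMIs against 1863 and 1742 for thrombocytes.

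The number of f13a1a.1 UMIs per cell was similar in thrombocytes, erythrocytes and neutrophils. In WT the 215 thrombocytes held 172 UMIs (0.685 to 0.929 per cell) and in het the level was 0.815 (0.728 to 0.909) per thrombocyte, against 0.671 (0.550 to 0.810) and 0.777 (0.652 to 0.919) per erythrocyte and 0.606 and 0.548 per neutrophil. Over all cells but the richest few, the mean was 0.711 in WT and 0.759 in het. Those richest were 44 WT and 63 het cells with 20 or more UMIs, which held 77.4% and 75.5% of all f13a1a.1 UMIs; 30 and 37 of them were macrophages and 0 were thrombocytes. Thinned to 1000 UMIs, the share of thrombocytes was 33.2% in WT and 31.9% in het against 20.7% of erythrocytes in both. In CPM, f13a1a.1 stood at 353.8 (303 to 411) in WT thrombocytes against 151 (124 to 182) in erythrocytes, and at 290.3 against 250.0 in het. The part of free RNA in these values was not tested.

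The transcriptomes of the cells on either side of that split were tested with the 2 libraries of 7 dpa as replicates. Of 3735 genes, 0 were called by edgeR's quasi-likelihood test with the library as a block (0% higher and 0% lower at an adjusted p under 0.05). The smallest adjusted p was 0.7687, and 124 genes had an unadjusted p under 0.05. DESeq2 also called 0, with 28 genes at an unadjusted p under 0.05. When f13a1a.1-positive meant 2 or more UMIs, edgeR called 9 of 2631 genes, of which her9 and rgcc were higher and acta1a, acta2, bhlhe40, ccl34b.4, col1a2, dusp2 and tnni1d lower. These 2 libraries also differ in genotype, and the p-values measure only the spread between them.

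In contrast, mmp9, the gelatinase that cleaves matrix, marked a small set of thrombocytes, most of them at 7 dpa, at levels far above those of erythrocytes. It was found in 11 of 215 WT 7 dpa thrombocytes, 5.12% (2.58 to 8.97%), and in 36 of 394 het 7 dpa thrombocytes, 9.14% (6.48 to 12.4%). In het sham 7 of 633 held it, 1.11% (0.446 to 2.27%). None was found in WT sham, WT 3 dpa or het 3 dpa, where the limit of 3 counts allows up to 1.79%, 6.82% and 5.08% of cells with a UMI. In 7 dpa erythrocytes mmp9 was found in 0 of 161 WT cells and 1 of 175 het cells, and in neutrophils in 28.8% and 71.4%. The WT and het intervals at 7 dpa overlapped.

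The cells that held mmp9 at 7 dpa held it in quantity. The median was 8 UMIs in WT and 5 in het, and the highest cells had 40 and 44. In bulk over thrombocytes this came to 209.8 CPM in WT 7 dpa, at least 29.4-fold above WT sham, where 0 UMIs were counted and the floor of 3 UMIs per library stands at 7.14 CPM. The WT 7 dpa level rested on 102 UMIs, 39.2% of them in 1 cell. In het, mmp9 stood at 9.70 CPM at sham and 371 CPM at 7 dpa. After thinning the shares were 4.35% in WT and 8.36% in het. Only 1 mmp9 thrombocyte in each 7 dpa library held a UMI of the neutrophil genes mpx, lyz or npsn, and 0 WT and 2 het cells were likely doublets.

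Of the genes with at least 20 UMIs in the mmp9 cells of each 7 dpa library, those with the highest ratios over the other thrombocytes are named. The minimum lets a gene in through the mmp9 cells alone, so no count is given. These ratios are given as a description, with no test, and rest on 11 and 36 cells. Among the largest were aars, si:ch211-153b23.5 and prdx1. Alanyl-tRNA synthetase, aars, stood at 1765 against 34.95 CPM in WT and 611 against 80.2 CPM in het. The WT value rested on 50 UMIs in 6 of the 11 mmp9 cells. In that library 1 cell held 39.4% of the aars UMIs of all thrombocytes. The uncharacterised si:ch211-153b23.5, also one of the 25 leading genes, stood at 4237 against 332 CPM in WT and 2308 against 367 CPM in het. The antioxidant enzyme gene prdx1 stood at 812 against 72.1 CPM in WT and 388 against 66.3 CPM in het.

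Others at least 2-fold higher in both libraries were the purine enzyme gene ada, the actin-bundling gene palld, rps27l, tfpia, the plectins pleca and plecb, sele, phlda2, cbx7a, bcl2l10, hopx and ap1s1. Palladin (palld) stood at 1447 against 271 CPM in WT and 828 against 267 CPM in het. Tissue factor pathway inhibitor tfpia stood at 1200 against 408.5 CPM in WT and 940 against 375 CPM in het.

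The rule genes differed in both directions in the mmp9 cells. For mpl the level was 424 against 616 CPM in WT and 194 against 475 CPM in het, lower in the mmp9 cells of both. For itga2b it was 671 against 677 CPM in WT and 429 against 685 CPM in het. The level of gp9 was lower in both, on 2 and 3 UMIs in the mmp9 cells. In WT thbs1b, apln and gp1bb were higher, at 3778 against 1577, 8014 against 3220 and 1730 against 1162 CPM. In het they were closer, at 1386 against 1270, 2555 against 2635 and 705 against 884 CPM. Heparin-binding ligand hbegfb was higher in the mmp9 cells, at 5508 against 1863 CPM in WT and 4059 against 2666 CPM in het, as was admb, at 5684 against 1527 and 3237 against 1753 CPM. In het these log2 ratios of 0.60 and 0.88 were 0.18 and 0.12 without the cells that held collagen UMIs and 0.21 and 0.56 without likely doublets. The mmp9 cells were also deeper, with medians of 2490 against 1838 UMIs in WT and 3042 against 1614 in het, which CPM scales out but detection does not. Without the cells that held collagen UMIs, the log2 ratio in het was 0.90 for tfpia, 0.72 for sele, 0.59 for bcl2l10 and 0.38 for cbx7a, all under 2-fold. Without likely doublets it was 0.99, 0.92, 0.88 and 0.72 for these genes and 0.94 for hopx, again under 2-fold.

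Another unevenness among thrombocytes was present in all 6 libraries. It was found after the values were seen, by comparing the share of cells that held a gene with the share that would hold it if its UMIs were spread over the cells by depth alone. Of 351 genes with at least 150 UMIs in each sham and 7 dpa library, admb had the widest gap, ranked by its smallest gap over those 4. It was found in 53.0, 56.8 and 48.8% of the WT thrombocytes and in 49.9, 59.3 and 57.6% of the het ones, where depth alone would give 87.5 to 93.9%. By contrast apln was found in 93.2 to 97.7% of cells, where depth alone would give 92.7 to 99.3%. The rule chose cells partly by apln, which raises its share. For myh11a, which the rule did not use, the shares were 89.1 to 97.7%, where depth alone would give 88.5 to 97.7%. Ranks 2 to 9 were held by ttn.2, h1fx, rbp4, ttn.1, pabpc4, jun, phlda2 and atf3. Of these, ttn.2 and ttn.1 are cardiomyocyte genes, as is pln, which ranked 11.

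The gene cldn5b, claudin 5 of endothelial tight junctions, ranked 10 in that list and was held by a minority of the cells. It was found in 15.5, 38.6 and 18.6% of WT thrombocytes and in 8.85, 35.6 and 25.1% of het thrombocytes. After thinning these shares were 15.1, 31.7 and 16.9% in WT and 5.95, 21.7 and 21.7% in het, so within each genotype sham had the lowest share. Each thrombocyte held 0.490 to 2.02 cldn5b UMIs on average, against 0 to 0.09 per erythrocyte. In all other filtered cells together cldn5b stood at 7.77 to 17.5 CPM, against 177 to 837 CPM in thrombocytes.

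**Figure D4:**
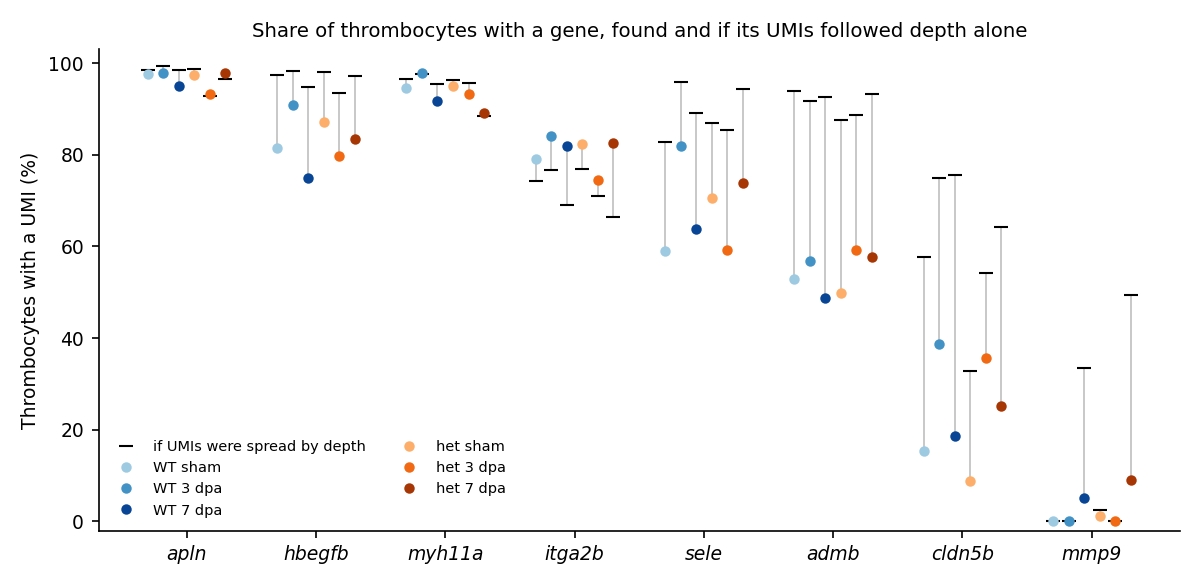
Share of thrombocytes with at least 1 UMI of 8 genes in each library (coloured points), joined to the share that would hold the gene if its UMIs followed cell depth alone (black dashes). For apln, myh11a and itga2b points and dashes lie close or the points are above, while admb, cldn5b and mmp9 lie far below their dashes in the libraries that hold them in quantity. The rule chose cells partly by apln and itga2b, which raises their points, and did not use myh11a.

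Thrombocytes with 2 or more cldn5b UMIs were compared with those with none. They numbered 16, 10 and 32 in WT and 31, 9 and 67 in het. In each of the 6 libraries admb, sele and cd63 were higher in the cldn5b cells. The level of admb was 3214 against 1523, 3796 against 1140 and 3993 against 1154 CPM in WT. In het it was 2949 against 1016, 2374 against 1043 and 4232 against 1324 CPM. These are differences of 1.07 to 1.78 on the log2 scale, while for sele they were 0.49 to 1.29 and for cd63 0.31 to 1.95.

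Genes entered with at least 30 UMIs in each sham and 7 dpa library, counted over both sides of the split together. Of 1384 such genes, 3 (0.217%) were at least 2-fold higher in the cldn5b cells of all 4: cd63, hsp70.3 and admb. Their smallest log2 ratios were 1.33, 1.25 and 1.07. The minimum lets a gene in through 1 side of a split alone, so this count and those of the splits below are a description. Splitting instead by sele, 3 of 1214 genes (0.247%) passed the same limit: cldn5b, the ubiquitin-like gene isg15 and admb, with smallest ratios of 2.12, 1.095 and 1.02. Splitting by admb, 0 of 1340 (0%) did. Ahead of cldn5b, at 0.58, ranked hsp70.1 at 0.95 and phlda2 at 0.86. Without likely doublets hsp70.1 reached 1.101 in the admb split, past the limit. Without likely doublets the smallest ratios of cd63, admb and hsp70.3 in the cldn5b cells were 1.199, 1.15 and 1.06. The endothelial genes kdrl, tie1, tek, plvapb, egfl7, pecam1, aqp8a.1 and spock3 summed to 0.100 to 0.645 UMIs per cldn5b cell and 0.0790 to 0.458 per cell without. The rule had already left out cells with a UMI of the endothelial gene cdh5, so these low sums were in part set by it. The part of endothelial cells in the cldn5b UMIs was not tested.

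For hbegfb the log2 ratios of cldn5b cells over cells without were 0.17 and 0.18 at sham and 1.104 to 1.38 in the 4 injured libraries. Cardiomyocyte myl7 was lower in the cldn5b cells of all 6, by log2 ratios of -1.96 to -0.20. A difference between stages in these ratios was not tested.

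Summed over all thrombocytes, the largest differences between 7 dpa and sham lay in genes already met. Of 1186 genes with at least 50 UMIs in 1 library of each pair, 11 (0.927%) were at least 2-fold higher at 7 dpa in both genotypes and 4 (0.337%) lower. The minimum lets a gene in through its higher library alone, so these counts are a description. The lower genes numbered 1 by the mean over cells and 2 with 50 CPM added or without the top cell of each gene. For the limit of 3 times the erythrocyte level, that level was taken as at least 3 UMIs over the erythrocytes of a library. With this floor, a gene with few thrombocyte UMIs falls under the limit whatever the erythrocytes hold. Of the 11, f13a1a.1, zgc:86709, tcap and 1 further gene were under 3 times the erythrocyte level in a library that sets the ratio. Among the other 7 were mmp9, aars, flnca, prdx1, pleca and si:ch211-153b23.5. Of these, aars, prdx1, pleca and si:ch211-153b23.5 were also at least 2-fold higher in the mmp9 cells of both libraries, so these measures overlap.

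The cytoskeletal linker flnca was not among the genes named for the mmp9 cells. Over all thrombocytes it stood at 35.7 CPM at sham and 150 CPM at 7 dpa in WT. In het it stood at 56.5 CPM at sham and 291 CPM at 7 dpa. It lay below the level of all other cells in each of those libraries. In het 7 dpa, though not in WT 7 dpa, the cardiomyocyte list was also more than 3 times the erythrocyte level. The part of cardiomyocyte RNA in flnca was not tested.

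Of the 4 lower genes, the keratins krt91, krt15 and krt4 owed over 50% of their UMIs in a library to 1 cell. The fourth, pdk2b, stood at 1.57 times the erythrocyte level in WT sham, read against the floor of 3 UMIs over 11 erythrocytes. In het sham pdk2b stood at 7.59 times. The listed immediate early genes, which cells switch on within minutes of a stimulus, were mostly lower at 7 dpa. Of 21 that could be compared, 15 were lower in both genotypes and 2 higher, 0 of them by 2-fold, where 413 of all 1186 genes were lower and 287 higher, with median log2 ratios of -0.56 in WT and -0.44 in het against -0.02 and -0.10 over all 1186 genes. With TMM scaling 13 of the 21 were lower in both, with medians of -0.57 in WT and -0.30 in het, against -0.03 and 0.04 over all genes. Without likely doublets 14 were, with medians of -0.62 and -0.27. The most abundant of the list, fosab, stood at 7794 CPM in WT sham and 5101 CPM in WT 7 dpa, against 6531 and 4615 CPM in the het libraries. For nr4a1 the levels were 785 and 403 CPM in WT and 558 and 314 CPM in het. In all other filtered cells fosab stood at 2731 and 2664 CPM in WT and 2716 and 2356 CPM in het.

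Between genotypes, 13 of 2092 genes (0.621%) were at least 2-fold higher in het at both sham and 7 dpa and 6 (0.287%) lower. A gene entered with at least 50 UMIs in 1 library of each pair. Thrombocytes of het held 1752612 UMIs against 420322 in WT at sham, and 1105569 against 486153 at 7 dpa. Genes high in het thus entered at a lower CPM, and the counts of 13 and 6 cannot be set against each other. These counts were 2 and 5 by the mean over cells, 3 and 2 with 50 CPM added, 16 and 2 with trimmed means of M values (TMM) as scaling, and 23 and 5 without the top cell of each gene. With stages as pairs, edgeR's quasi-likelihood test called 0 of 4110 genes (0% higher and 0% lower), with 122 at an unadjusted p under 0.05 and a smallest adjusted p of 0.1232. Of the 13, 4 owed over 50% of their UMIs in a library to 1 cell, g0s2, tfa and rbp2a among them, and 7 were under 3 times the erythrocyte level, with clu in both counts. The remaining 3 were myh10, si:ch211-198c19.3 and myh7. The erythrocyte limit cannot set cardiomyocyte RNA apart in these het libraries, because the cardiomyocyte list itself passed it. That list stood at 56.16 UMIs per thrombocyte against 11.14 per erythrocyte in het sham, and at 117.1 against 19.04 in het 7 dpa. The part of such RNA in the 3 genes was not tested. The non-muscle myosin myh10 stood at 33.3 and 53.5 CPM in WT sham and 7 dpa and at 131 CPM in both het libraries. In het 3 dpa, 0 UMIs of myh10 were counted.

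The 6 lower genes included fkbp5 and klf9, which glucocorticoid hormones are known to induce. Of the 6, klf9 was under 3 times the erythrocyte level in both WT libraries. The gene fkbp5 was just past this limit, at 3.46 times the erythrocyte level in WT sham and 3.12 times in WT 7 dpa. At 7 dpa irs2b, usp2a and nup88 stood at 15.4, 8.67 and 12.98 times that level. In WT sham they were under 3 times, read against the floor of 3 UMIs over 11 erythrocytes. For fkbp5 the levels were 628, 185 and 745 CPM in WT against 149, 91.8 and 194.5 CPM in het, so WT sham and 7 dpa were high and the other 4 low. Het lay below WT by a log2 ratio of -2.08 (-2.33 to -1.82) at sham and -1.94 (-2.19 to -1.69) at 7 dpa. Over the 3 stages as pairs the edgeR log2 fold change of fkbp5 was -1.73, lower in het in 3 of 3 pairs, with an adjusted p of 0.2916. WT sham and WT 7 dpa were also the highest for fkbp5 outside the thrombocytes, at 385, 138 and 387 CPM in WT against 74.5, 85.9 and 112 CPM in het; a difference from those cells was not tested. All 6 genes of the glucocorticoid-type list that could be compared were lower in het at both stages, 2 of them by 2-fold, where 573 of all 2092 genes were lower, with median log2 ratios of -0.49 and -0.87 against -0.02 and -0.05 over all 2092 genes. With TMM scaling, 5 of the 6 were lower. The list was chosen with earlier results of these data known, so its count is a description and carries no test.

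Coagulation factor gene f5 was lower in het at each stage. It stood at 1083, 1311 and 866 CPM in WT against 536, 981 and 483 CPM in het, and the 3 het values lay below the WT value of the same stage. The log2 ratios of het over WT were -1.02 (-1.18 to -0.85), -0.42 (-0.76 to -0.08) and -0.84 (-1.03 to -0.65). With stages as pairs its edgeR log2 fold change was -0.72, with an adjusted p of 0.9998. In all other filtered cells f5 stood at 5.41 to 16.1 CPM. Adiponectin receptor gene adipor2 stood at 362, 143 and 267 CPM in WT against 121, 120 and 127.5 CPM in het, and at 241, 166 and 138.5 CPM against 126, 143 and 98.6 CPM in all other cells.

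Cell-cycle transcripts were rare in thrombocytes. At least 2 UMIs of the 29 listed genes were found in 2.98, 4.55 and 4.19% of WT cells and in 4.27 and 4.82% of het sham and 7 dpa cells. In het 3 dpa they were found in 8 of 59 cells, 13.6% (6.04 to 24.98%). After thinning, the share was 13.04% there, on 6 of 46 cells, and 0 to 2.44% in the other 5 libraries. The highest het 3 dpa cell held 33 of these UMIs and the highest het sham cell 57, against 3 or 4 in the other libraries. Fibroblast transcripts were also high in het 3 dpa, as given above, and their part in this share was not tested.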

How the data were processed

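The deposited files hold whole-number UMI counts per gene and barcode, made by the authors with Cell Ranger 3.0.2 per the file headers; the submitters' processing notes also name Seurat 3.1.4 and the GRCz11 build. Cells with at least 500 UMIs, at least 200 genes and at most 30% mitochondrial UMIs were kept. Doublets were scored per library with Scrublet in scanpy 1.11.5; the top 0.8% per 1000 barcodes were marked as likely doublets, kept, and left out as an alternative. Erythrocytes were cells with at least 20% haemoglobin UMIs, and cardiomyocytes cells with at least 5% of UMIs from 4 myocyte genes, neither with itga2b or mpl. Symbols with several gene identifiers were summed, and 24 listed genes were absent from the matrices used here.

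UMIs were summed over the thrombocytes of a library and scaled to CPM. Between-library log2 ratios over many genes add 10 CPM to both levels, and those with an interval add nothing and have an exact conditional binomial interval. Cells were thinned to 1000 UMIs for shares. The f13a1a.1 comparison used edgeR 4.0.16 with Benjamini-Hochberg adjustment, with DESeq2 1.42.0 as an alternative, under R 4.3.3 and Python 3.11.15. A genotype test over all 6 libraries, added after seeing the data, used edgeR on the summed UMIs with stages as pairs (2 residual degrees of freedom). Both fits were run on simulated counts with 200 genes changed 4-fold. The f13a1a.1 fit recovered 191 of them, with 10 false calls, at a dispersion set to 0.05. That dispersion was not taken from the data. The simulation thus cannot say which changes either test could find in the real cells.

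Genes named between libraries were the first 10 past or nearest a 2-fold ratio in each direction, ranked by the smaller of both ratios; those of the mmp9 cells were the first 15. The members and all gene lists were chosen with earlier results of these data known. Each group is 1 library of pooled ventricles, so no 2 groups were tested against each other. Results that rest on 2 genes are not reported here.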

Additional observations from a re-analysis of the deposited data

Results flagged for a closer look

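The thrombocyte share is listed because its main values had opposite signs in the genotypes. For 7 dpa over sham, WT had a log2 ratio of 0.20 (-0.10 to 0.50), an interval that included 0. The het ratio was -1.33 (-1.52 to -1.15). The WT ratio was -0.035 after thinning to 1000 UMIs and -0.027 without the macrophage and cdh5 limits, so both genotypes then had the same sign. Each genotype had 1 library at each stage, and the difference between the genotypes was not tested.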

How the results depend on the processing

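Of the values that answer a comparison, 120 kept their direction and size under the alternatives tried, 19 moved and 2 reversed. Of the values of single genes, 560 stayed within their counting error, 77 moved and 3 reversed. A single gene counted as reversed only if its main ratio was at least 2-fold. A smaller ratio that changed sign was counted as within error or moved. The log2 ratio of the WT share at 7 dpa over sham reversed to -0.035 after thinning to 1000 UMIs and to -0.027 without the macrophage and cdh5 limits, an alternative chosen after seeing the data. The het ratio was -1.53 among cells with at least 1000 UMIs and -1.66 after thinning. With 2 or more UMIs asked for, f13a1a.1 was found in 0% of WT sham, 0% of het sham, 19.1% of WT 7 dpa and 20.1% of het 7 dpa thrombocytes, and after thinning in 33.2% and 31.9% at 7 dpa. With 2 or more UMIs, mmp9 was found in 0.316% of het sham and 6.35% of het 7 dpa thrombocytes, and the f13a1a.1 test called 9 genes. Genes higher in het numbered 2 by the mean over cells, 3 with 50 CPM added and 23 without the top cell; lower in het, 2 with TMM and 2 with 50 CPM added. Genes lower at 7 dpa numbered 1 by the mean over cells, 2 with 50 CPM added and 2 without the top cell. Het over WT at 7 dpa reversed to -0.65 for g0s2 and -0.16 for rbp2a without the top cell and to -0.091 for ccdc141 by the mean over cells. The cause was not tested. TMM moved the median of all genes from -0.05 to 0.13 (het over WT, 7 dpa) and from -0.10 to 0.04 (het 7 dpa over sham). Leaving out either 7 dpa library leaves no residual degrees of freedom for the f13a1a.1 test, so it was not run. With stages as pairs the genotype test called 0 genes with the replicate block and 0 without it (122 and 88 at an unadjusted p under 0.05). The 3 dpa values rest on the fewest cells, 44 and 59.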
